A study of Gossypium hirsutum with 120 samples.

Results

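The floral nectary of upland cotton (Gossypium hirsutum TM-1) was compared with the tissue beside it at the pre-secretory stage, the day before the flower opens, by RNA sequencing. The nectary was represented by 2 RNA samples (nectary 1 and 2) and the adjacent non-nectary control tissue by 3 (control 1, 2 and 3), each a pool of dissected pieces from untreated plants grown in chambers. These 5 RNA samples, found by their column names, were 5 of the 51 in the table. Every library had been sequenced in a pair of runs, so that they filled 10 of its 102 columns, and the runs were summed. The rest of the series holds the floral nectary at later stages and 3 extrafloral nectary types, each with its own adjacent tissue. Of these, 2 pairs were used for comparison: the secretory floral nectary, taken on the day of flower opening, and the pre-secretory circumbracteal nectary, an extrafloral nectary below the flower, each with 3 nectary and 3 adjacent samples. The authors defined the pre-secretory stage of the circumbracteal nectary as the match-head square stage of the flower bud, not as the day before opening. Nothing in the labels says whether replicates came from separate plants. The p-values rest on the spread between replicates pooled over all 51 RNA samples, not these 5 alone, and that spread may be partly technical. All values below are scaled values: the deposited read values divided by a factor that puts each sample on 1 upper quartile. How the deposited values depend on gene length is not given in the sources used here, so levels are not compared between genes.

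Cotton floral nectaries lie on the inner base of the calyx as a ring of papillae, which are multicellular glandular trichomes. Nectar sugar is generally thought to reach such glands as sucrose, which may be stored as starch, remade, exported by SWEET facilitators and split outside the cell by cell wall invertase, while plasma membrane proton pumps energise transport. Several transcription factors known from Arabidopsis and other species act in nectary formation, among them the YABBY factor CRABS CLAW, SHI/STY factors, floral MADS-box proteins and BLADE-ON-PETIOLE proteins. Since cotton is an allotetraploid, most genes have near-identical copies that can share reads. How such reads were divided is not given in the sources used here, so values of close copies are uncertain.

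The 5 libraries summed to between 8127271 and 12215148 deposited read values. Across genes, log2 values correlated with r = 0.912 between the nectary samples and with r = 0.871 to 0.938 between the control samples, against 0.787 to 0.844 between nectary and control. Control 3 gave both the highest of these, with nectary 2, and the lowest, with nectary 1. The label of the nectary was checked with 8 nectary marker genes, of which 7 were called higher in the nectary by the test described below. Their summed scaled value was 81078.4 and 27862.8 in nectary 1 and 2, against 360, 89.4 and 66.7 in control 1 to 3. Nearly all of it came from the 5 with best match CWINV4, a cell wall invertase (81007.7 and 27832.3 against 353.7, 84.7 and 63.3). The 2 with best match SWEET9 summed to 70.7 and 28.6 against 0, 2.79 and 0. The sum is thus mostly a measure of invertase genes, which are described again below. The 8th, CRABS CLAW-like LOC107939930, was at 0 and 1.91 in the nectary and 6.33, 1.86 and 3.47 in the control (adjusted p = 0.408). Marker lists for other tissues also moved. The 11 stomatal genes summed to 116.1 and 96.4 in the nectary against 862.9, 1189.6 and 358.9 in the control, and 6 of the 11 were called lower. The 27 phloem genes summed to 887.7 and 898 against 8034.8, 3512.9 and 3091.1, with 4 called lower, all of them sieve element occlusion genes. Those with best match SEOR1 summed to 522 and 394 against 7630, 2913 and 1947. The other phloem markers overlapped between the tissues and had 0 calls: SUC2 at 309 and 416 against 354, 535 and 958, and APL at 56.6 and 87.8 against 50.6, 65.2 and 186. The 13 green mesophyll genes summed to 1264.4 and 2390.5 against 9321, 13263.3 and 1525.6. Control 3 thus fell between the nectary samples, and limma called 0 of the 13 although 9 were lower at an unadjusted p under 0.05. Among 34 xylem genes (1022 and 660.4 against 1156.9, 839.6 and 955.2) 1 was called higher. None of the 4 tested of 5 tapetum and pollen genes (84.8 and 147 against 79.6, 71.7 and 99.7) was called by limma or had an unadjusted p under 0.05. In bulk tissue fewer cells of a type and less RNA per cell cannot be told apart, and the part of these markers in the results below was not tested.

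**Figure D1:**
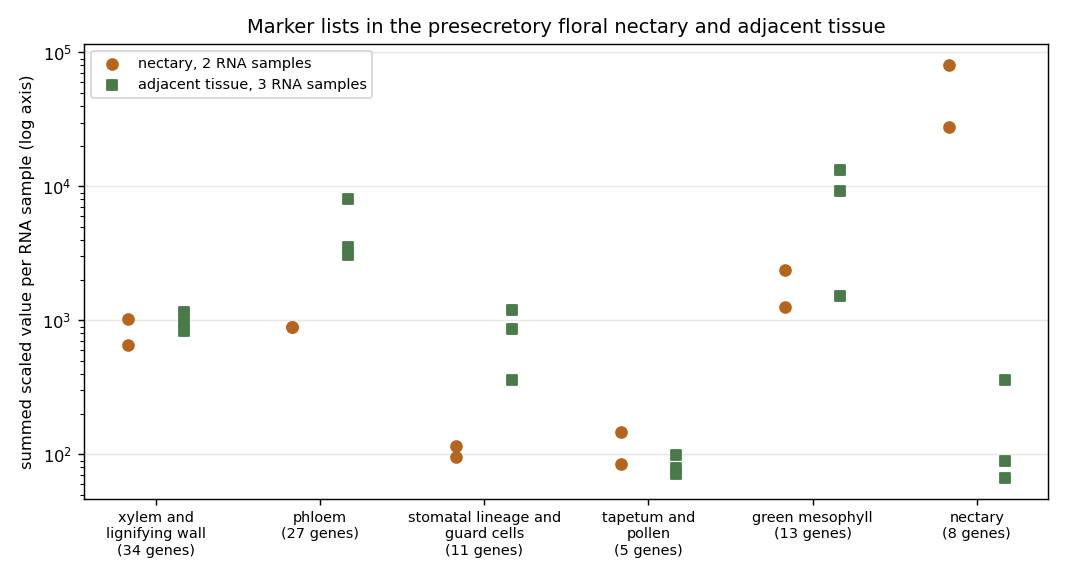
Summed scaled value (log axis) of each marker list, 1 point per RNA sample, for the 2 nectary samples (circles) and the 3 adjacent samples (squares). The nectary list, nearly all of it from CWINV4 matches, lies at 27862.8 and 81078.4 in the nectary and at most 360 beside it. The stomatal and phloem lists lie higher in every adjacent sample, for phloem through the sieve element occlusion genes. The green mesophyll value of control 3, 1525.6, lies between the nectary samples.

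Of 45337 genes tested, 3972 (8.76%) differed between nectary and adjacent tissue at a Benjamini-Hochberg adjusted p below 0.05 and at least 1.5-fold. The test was limma on log2(scaled value + 1), with the spread shared over all 51 samples. In the nectary 1825 genes (4.03%) were higher and 2147 (4.74%) lower, and the median log2 difference over all genes was -0.03. Changes were large: 707 of the higher and 1067 of the lower genes passed 8-fold, and the median absolute log2 difference was 2.25 and 2.99. For 3944 of the called genes the 2 nectary values lay wholly outside the range of the 3 control values, as they did for 36.7% of all genes tested. The balance depended on the scaling. With median-of-ratios factors 1570 were higher and 2478 lower with an all-gene median of -0.14, and with totals 1132 and 2459 with a median of -0.25. The number of calls was 1479 without nectary 1, 2583 without nectary 2 and 2622 without control 2, and 1848 with only the 5 samples in the fit. A further 9263 genes, called ones included, had an unadjusted p under 0.05 (20.4%).

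**Figure D2:**
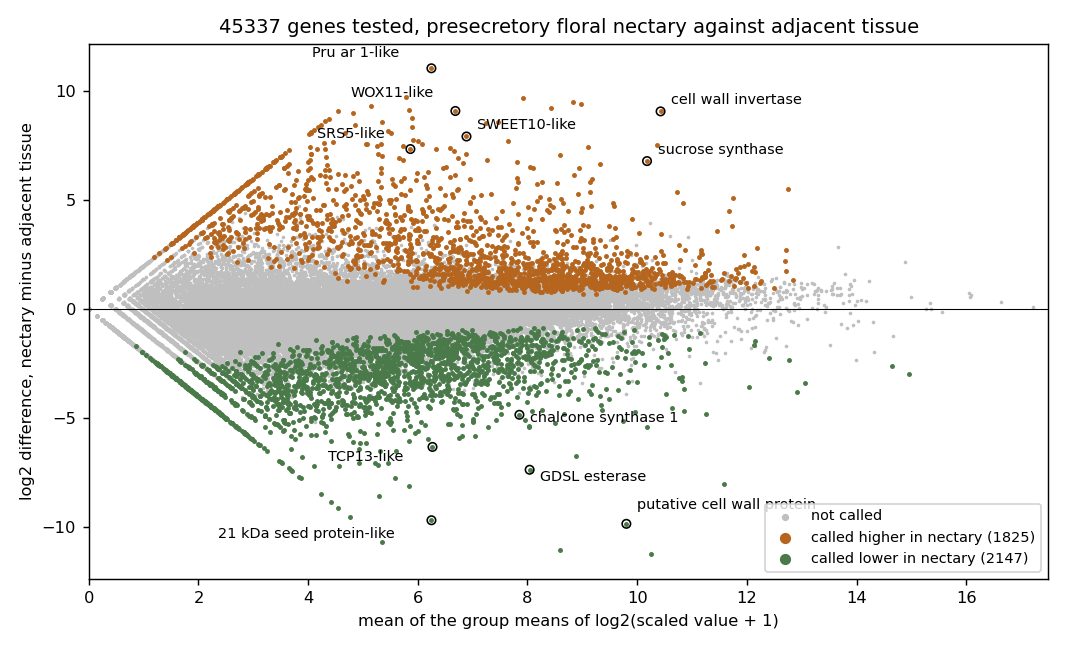
Log2 difference between nectary and adjacent tissue against mean log2(scaled value + 1) for the 45337 genes tested, 1 point per gene. The 1825 genes called higher and 2147 called lower reach beyond 10 in either direction, and circles mark genes described in the text.

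Genes with the largest increases encode enzymes and small proteins of varied function. A major allergen Pru ar 1-like gene (LOC107895971), of the family of intracellular pathogenesis-related proteins of class 10, stood at 5553 and 2214 in the nectary and at 0, 0 and 3.47 beside it, a log2 difference of 11.06 ± 1.21 (SE; adjusted p = 4.33e-08). Peroxidase 16-like LOC107912929 was at 2096 and 1241 against 0.905, 0.931 and 0.867 (9.73 ± 0.89, adjusted p = 8.14e-10). An arogenate dehydratase-like gene (LOC107889235), for an enzyme of phenylalanine synthesis, was at 9200.1 and 5320.2 against 22.6, 3.72 and 4.33. In all of these genes both nectary samples lay far above the highest control sample. A caffeic acid 3-O-methyltransferase-like gene (LOC107937281), of a family that methylates phenolics, reached 19196 and 7904 against 57.9, 27.9 and 1.73 (log2 difference 9.53 ± 1.54, adjusted p = 4.2e-05). A gene annotated as very-long-chain enoyl-CoA reductase-like (LOC107895912), after an enzyme of fatty acid elongation, reached 15696 and 4485 against 60.6, 15.8 and 1.73 (9.21 ± 1.52, adjusted p = 5.49e-05). The flavin-dependent oxidoreductase LOC107930313 was at 1330.0 and 1385 against 2.71, 2.79 and 0. A gene annotated as a DET2-like steroid reductase (LOC107915731) was listed at 0 in every control sample and at 682 and 227 in the nectary. It has the same best Arabidopsis match as LOC107895912, so the annotated functions of both are uncertain.

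Cell wall invertase splits sucrose in the cell wall. All 5 entries counted as genes with best Arabidopsis match CWINV4, the invertase needed for nectar secretion there, rose. They are the CWINV4 members of the nectary marker list. The one with the highest values, LOC107948309, was at 55794 and 18376 in the nectary and at 277, 55.8 and 12.1 in the control, a log2 difference of 9.08 ± 1.27 (SE; adjusted p = 4.16e-06). Its companion LOC107899251 was at 22058 and 7869 against 64.2, 16.8 and 5.2 (9.42 ± 1.60, adjusted p = 9.03e-05). The groups did not overlap in either gene, and nectary 1 was the higher nectary sample in both. The other 3 entries, XP_016716713.1, XP_016716712.1 and LOC107896340, rose by 7.28, 6.25 and 6.02 on the log2 scale. The first 2 are annotated as isoforms X2 and X1, carry no paired gene name and may belong to 1 gene. Of the whole list of 31 invertases, 8 rose (25.8%, all genes 4.03%) and 4 fell (12.9%, all genes 4.74%). These counts were 5 and 1 without nectary 1, and those lower were 2 without nectary 2. The list's median of 0.06 turned negative with median-of-ratios factors (-0.06) and totals (-0.17).

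Among genes of sucrose turnover 3 were called. Sucrose synthase, which interconverts sucrose and UDP-glucose, had a gene, XP_016673840.1, at 15358 and 9768 in the nectary and 96.8, 106 and 126 in the control. The difference of 6.80 ± 0.54 (log2, SE; adjusted p = 5.83e-11) exceeded the spread of either group. It is 1 of the 2 called of 6 genes with best match SUS4. Sucrose-phosphatase XP_016680315.1, the last step of sucrose synthesis, rose by 1.76 ± 0.27 (adjusted p = 2.32e-05), from 335, 414 and 736 to 1739 and 1441. That call was lost with only the 5 samples in the fit (adjusted p = 0.0978). Sucrose synthase LOC107901027 was called (2.23, adjusted p = 0.0336) although the groups overlapped, at 1811 and 2975 against 189, 338 and 1898. Its call was lost with only the 5 samples (adjusted p = 0.331), with totals (0.138) and without control 1 (0.223) or control 2 (0.136). In the list of 18 genes for sucrose synthesis and cleavage, 3 rose (16.7%, all genes 4.03%), or 1 with only the 5 samples in the fit. Limma called 0 of the list lower, with 2 lower at an unadjusted p under 0.05. Its median of 0.20 became -0.03 with totals.

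Among SWEET genes, which encode bidirectional sugar facilitators, 8 of 45 rose (17.8%, all genes 4.03%) and 5 fell (11.1%, all genes 4.74%). Of the 6 with best match SWEET10 (AT5G50790) 3 rose. The list median was 0.00 (-0.11 with totals). The SWEET10-like gene LOC107949600 was at 1504 and 427 in the nectary against 3.62, 0.931 and 0 in the control (8.60 ± 1.13, adjusted p = 1.55e-06). A second SWEET10-like gene, LOC107946596, was at 3598 and 947 against 3.62, 16.8 and 4.33 (7.93 ± 1.63, adjusted p = 0.00102), which without nectary 1 became 6.96 with an adjusted p of 0.0543. Both genes with best match SWEET9, the nectary exporter described in Arabidopsis, Brassica and Nicotiana, were called higher at low values. XP_016707926.1 was at 28.3 and 22.9 in the nectary and listed at 0 in all control samples. XP_016673587.1 was at 42.4 and 5.73 against 0, 2.79 and 0 (log2 difference 3.45), a call lost without nectary 1 (2.11, adjusted p = 0.249), in run 2 alone (adjusted p = 0.189) and with only the 5 (0.164) or 17 floral samples (0.0572) in the fit. The NEC1-like gene XP_016725315.1, of the same family, was at 174 and 35.3 with all 3 controls at 0. Without nectary 1 the number of SWEET genes called higher was 4, and the 5 called lower became 1 to 3, whichever of the 5 libraries was left out.

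**Figure D3:**
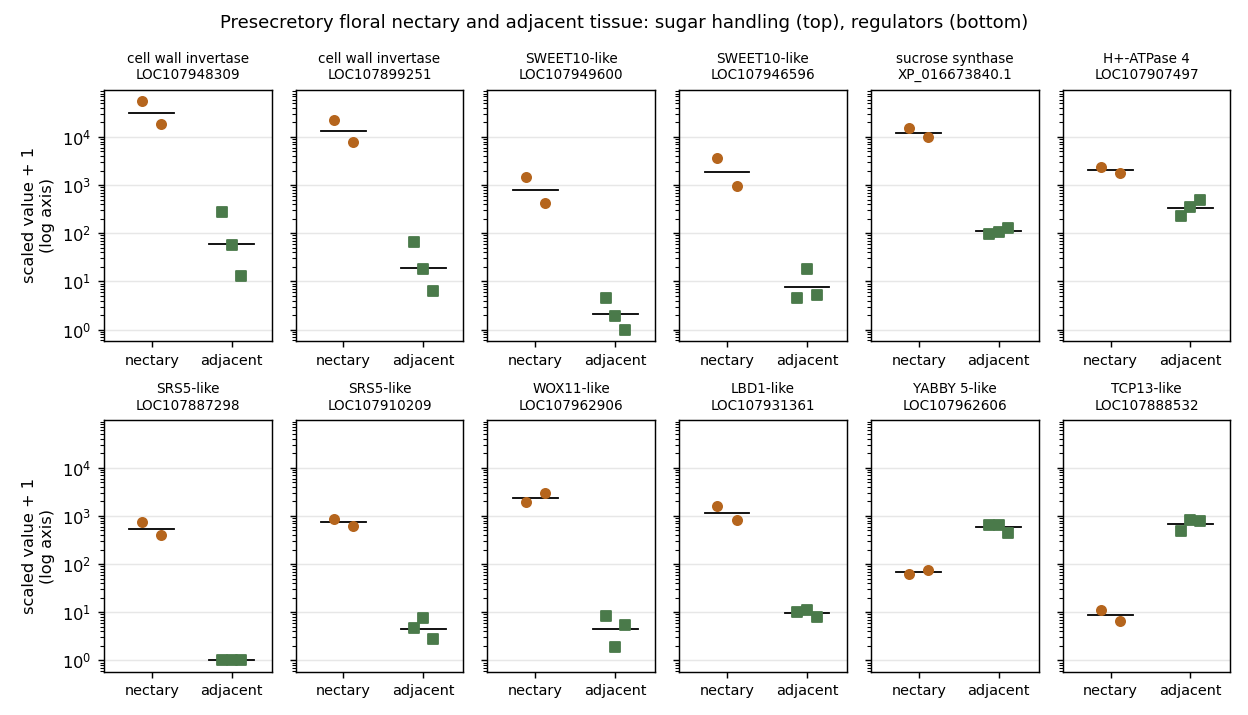
Scaled value + 1 (log axis) in each of the 2 nectary samples (circles) and 3 adjacent samples (squares), for genes of sugar handling (top) and regulators (bottom), with horizontal lines at the mean of the log2 values. The nectary lies below every adjacent sample in the YABBY 5-like and TCP13-like genes and above every one in the others.

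The share of sugar uptake carriers called was close to that of all genes. The ERD6-like 16 sugar transporter LOC107949171 was at 760.5 and 419.9 against 10.9, 10.2 and 3.47 (6.07 ± 1.19, adjusted p = 0.000569), in a list of 88 uptake carriers of which 4 rose (4.55%, all genes 4.03%) and 5 fell (5.68%, all genes 4.74%). They were 1 and 0 without nectary 1, and those lower were 3 without control 2. Of 33 proton pump genes, 4 rose and 1 fell (1 higher without nectary 1, 2 without control 1 or control 2). As shares of the pump list, 12.1% were higher and 3.03% lower. Plasma membrane ATPase 4-like LOC107907497, a proton pump, rose by 2.60 ± 0.52 (adjusted p = 0.000696), with 2402 and 1775 in the nectary and 225, 355 and 489.8 in the control. The vacuolar pyrophosphatase gene LOC107893910 fell by 1.14 on the log2 scale, a call lost without nectary 2 (-0.77, adjusted p = 0.208).

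Of 43 genes of starch synthesis 2 rose (4.65%, all genes 4.03%) and limma called 0 lower (all genes 4.74%), also at an unadjusted p under 0.05. A glucose-1-phosphate adenylyltransferase gene (LOC107957958), for the enzyme that makes the starch precursor, was at 1666 and 830.2 against 369, 361 and 307 (1.77 ± 0.36, adjusted p = 0.000833), which was not called without nectary 1 (1.27, adjusted p = 0.119). The count of 2 became 0 without nectary 1 and 1 without nectary 2, control 1 or control 2. Among 67 genes of starch breakdown 1 rose (1.49%) and 3 fell (4.48%), neither share above that of all genes. The 1 higher call was lost whichever of the 5 libraries was left out, and the number lower was 0 without nectary 1 or control 2 and 1 without control 1 or control 3. The inactive beta-amylase 9-like LOC107913643 was at 176 and 212 against 203, 259.7 and 276 (adjusted p = 0.765).

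Of 65 aquaporins, which are water channels, 5 rose (7.69%, all genes 4.03%) and 15 fell (23.1%, all genes 4.74%), with a median of -0.71. PIP2-2-like LOC107889604, of the plasma membrane class, was at 4504 and 1722 in the nectary and 75.1, 70.7 and 21.7 in the control (5.80 ± 0.96, adjusted p = 5.6e-05). The PIP2-7-like gene XP_016698608.1 moved the other way, from 160.1, 246 and 113 in the control to 4.04 and 7.63 (log2 difference -4.65 ± 0.56, adjusted p = 3.2e-07). Leaving out nectary 1 gave 3 higher and 6 lower, and leaving out nectary 2, control 1 and control 2 gave 7, 9 and 8 lower.

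Genes for nitrogen assimilation, amino acid transport and secretion followed, since amino acids and proteins also enter nectar. Of 59 nitrogen assimilation genes, 6 rose (10.2%, all genes 4.03%) and 5 fell (8.475%, all genes 4.74%), with a median of 0.31. Nitrate reductase LOC107922292, the entry step from nitrate, was at 136 and 152 against 7.24, 5.58 and 3.47 (4.54 ± 0.74, adjusted p = 5.02e-05). Cytosolic glutamine synthetase LOC107954816, which incorporates ammonium, rose by 2.60 (599.9 and 584 against 70.6, 67 and 192, adjusted p = 0.000265). Asparagine synthetase XP_016668862.1 rose by 2.53 (578 and 475 against 52.5, 69.8 and 198, adjusted p = 0.00167). The plastid glutamine synthetase gene LOC107957078 fell by 2.44 on the log2 scale. Nitrite reductase XP_016675019.1 stood at 188 and 106 against 103, 83.8 and 118 (adjusted p = 0.7). With only the 5 samples in the fit the calls of both glutamine synthetases and the asparagine synthetase were lost (adjusted p = 0.0762, 0.0516 and 0.108). The count of higher genes was 3 without nectary 2, and that of lower genes was 1 to 3, whichever library was left out.

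A list of 187 amino acid transporters includes the WAT1-related (UMAMIT-type) exporters. Of these 187, 29 rose (15.5%, all genes 4.03%) and 9 fell (4.81%, all genes 4.74%), with a median of 0.35. The WAT1-related gene LOC107888346 was listed at 0 in all control samples and at 137 and 116 in the nectary. LOC107962507 was at 227 and 70.6 against 0, 0.931 and 0 (6.68 ± 1.19, adjusted p = 0.000178), and XP_016710933.1 at 119 and 153 against 3.62, 0 and 0.867 (6.05 ± 1.03, adjusted p = 9.39e-05). Another family member, XP_016738965.1, was lower (3.03 and 9.54 against 252, 79.1 and 106), a call lost without nectary 1 (-3.62, adjusted p = 0.0833). The counts were 19 and 1 without nectary 1, and those lower were 5 without nectary 2 and 4 without control 3. The 398 vesicle traffic genes of granulocrine secretion had 8 higher and 2 lower, under the background of 4.03% and 4.74%. Their median of 0.14 became -0.08 with totals. A Sec61 subunit gene (LOC107960240), part of the channel for secreted proteins, rose by 1.33 ± 0.36 (adjusted p = 0.013), a call lost without nectary 1 (0.79, adjusted p = 0.477) or control 3 (1.02, adjusted p = 0.0938). Without nectary 1, control 2 and control 3 the number higher was 1, 5 and 2, and that lower was 0 or 1 without nectary 1, nectary 2, control 1 or control 2.

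Among regulators of nectary and floral organ identity, several SHI/STY genes rose. The family's members are RING-like zinc finger factors that act on auxin synthesis in gynoecium and style development of Arabidopsis. Of 6 genes with best match SRS5, 3 rose. LOC107887298 was listed at 0 in all 3 control samples and at 731 and 399.9 in the nectary. LOC107910209 was at 881 and 628 against 3.62, 6.52 and 1.73 (7.35 ± 0.64, adjusted p = 2.38e-10), and LOC107943066 at 277 and 239 against 3.62, 0.931 and 3.47 (6.24 ± 0.59, adjusted p = 1.53e-09). The remaining 3 copies did not exceed 25.8 in any sample. Some related genes rose too. SRS1-like LOC107936562 and LOC107909432 rose by 4.08 and 3.11, and LATERAL ROOT PRIMORDIUM 1-like LOC107891449 by 5.57 (359.5 and 677 against 10.9, 3.72 and 19.1). With best match STYLISH1, 3 genes were not called (log2 differences -0.46 to 1.70), and with LATERAL ROOT PRIMORDIUM 1 also 3 (-0.33 to 0.045). LOC107896388 and LOC107943439, with the latter match, were called (1.83 and 2.13). Both were lost with only the 5 samples in the fit (adjusted p = 0.135 and 0.271) or without control 1 (0.118 and 0.113). The regulator list as a whole, 61 genes, had 9 higher (14.8%, all genes 4.03%) and 5 lower (8.2%, all genes 4.74%). Its median was -0.39. Without nectary 1, control 1 and control 2 those lower were 2, 3 and 3.

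The other named regulators of nectary development behaved less uniformly. CRABS CLAW-like LOC107939930 was, as given above, at or below 6.33 in every sample. The 4 copies of ARF6 and 9 of ARF8, floral maturation factors, were not called, nor were the 2 copies of MYB21. Of these, LOC107892278 was at 4218 and 1844 in the nectary against 330, 490 and 294, without overlap (log2 difference 2.94, adjusted p = 0.215). The NPR5-like gene LOC107921109, of the BLADE-ON-PETIOLE group, rose by 2.07 ± 0.48 (41.4 and 81.1 against 9.05, 18.6 and 13, adjusted p = 0.00355), lost without nectary 2 (1.60, adjusted p = 0.118), as 1 of 4 copies. YABBY 5-like LOC107962606, of a family that marks the abaxial side of lateral organs, fell by 3.07 on the log2 scale, from 658, 648 and 447 to 62.6 and 73.5 (SE 0.50, adjusted p = 4.51e-05). Of the 54 floral homeotic genes, 12 rose (22.2%, all genes 4.03%) and 1 fell (1.85%, all genes 4.74%), with a median of 0.79. The 4 genes with best match PISTILLATA, a petal and stamen identity factor, all rose. The 2 with the highest values were at 731 and 323 (XP_016717628.1) and 579 and 211 (XP_016725848.1) in the nectary against 22.6, 20.5 and 0 and 34.4, 1.86 and 0 in the control. With only the 5 samples in the fit these 4 calls were lost (adjusted p = 0.0654 to 0.131). Without nectary 1 the number of homeotic genes called higher was 7. The single lower gene, AGL6-like XP_016746546.1, was lost without nectary 1, nectary 2, control 1 or control 2.

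WOX11-like LOC107962906, a homeobox factor known for root initiation in Arabidopsis and 1 of the genes with the largest rises, was at 1909 and 3037 in the nectary against 7.24, 0.931 and 4.33 (9.10 ± 0.86, adjusted p = 1.53e-09). Of 60 LOB domain factors, plant-specific regulators of lateral organs, 12 rose (20.0%, all genes 4.03%) and 2 fell (3.33%, all genes 4.74%). The list median was 0.37, and 46 were not called. The LBD1-like gene LOC107931361 was at 1614 and 843 against 9.05, 10.2 and 6.93 (6.92 ± 1.37, adjusted p = 0.000631). LBD25-like LOC107923687 was at 351 and 179 against 2.71, 0 and 0, and LBD16-like LOC107923647 at 133 and 116 with every control sample at 0. Only 1 of the 2 lower LOB genes stayed called without nectary 1, nectary 2, control 1 or control 2.

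Among 79 TCP and growth-regulating factors, regulators of organ growth, 1 rose (1.27%, all genes 4.03%) and 21 fell (26.6%, all genes 4.74%). The list median was -1.54, and 57 were not called. TCP13-like LOC107888532, of the class that restrains leaf cell proliferation in Arabidopsis, was at 10.1 and 5.73 in the nectary against 488, 828 and 803 (-6.32 ± 1.22, adjusted p = 0.000478). The TCP4-like gene LOC107948729 was at 6.06 and 18.1 against 199, 160.1 and 169, and was lost without nectary 1 (-3.20, adjusted p = 0.0776). The number lower was 5 without nectary 1 and 12 without control 2, and the 1 higher gene, TCP20-like LOC107946203, was lost without nectary 1 or nectary 2. Cell division genes showed no comparable shift: of 140, 4 rose and 2 fell, fewer than the all-gene shares, with a median of -0.45. The histone H2B-like gene LOC107899288 was among the higher ones (1338 and 583 against 248, 248 and 80.6) and was lost without nectary 1 (adjusted p = 0.292) or control 3 (adjusted p = 0.083). Without nectary 1, nectary 2, control 1 and control 3 the number higher was 1, 2, 2 and 1. The number lower was 1 without nectary 1, control 1 or control 2 and 3 at most.

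Of 127 genes for wax and cutin, the lipids of the cuticle, 47 fell (37.0%, all genes 4.74%) and 5 rose (3.94%, all genes 4.03%). The list median was -1.41, and 75 were not called. The cytochrome P450 86A22-like gene LOC107912593, of a family that hydroxylates cutin fatty acids, was at 9.09 and 3.82 in the nectary against 432, 909 and 256 (-6.06 ± 0.79, adjusted p = 1.19e-06), and its copy LOC107947035 at 2.02 and 2.86 against 171, 403 and 186 (-6.10 ± 0.85, adjusted p = 4.16e-06). The glycerol-3-phosphate 2-O-acyltransferase gene XP_016680133.1, for cutin monomers, was listed at 0 in both nectary samples and at 113, 155 and 41.6 in the control. Long chain acyl-CoA synthetase 4-like LOC107950760 went the other way (933 and 577 against 168, 272 and 211, 1.78 ± 0.28, adjusted p = 3.28e-05). Leaving out nectary 1 gave 31 lower and 1 higher, leaving out nectary 2 gave 31 and 3, and those higher were 3 without control 2.

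GDSL esterases, a family that includes cutin-assembling enzymes, had 32 of 116 lower (27.6%, all genes 4.74%) and 5 higher (4.31%, all genes 4.03%). Their median was -1.28. At5g33370-like LOC107892117 was at 28.3 and 13.4 in the nectary against 7024, 5285 and 1033 (-7.36 ± 1.03, adjusted p = 4.64e-06). At4g16230-like LOC107961078 was at 4735 and 1810.3 against 26.2, 8.38 and 0.867 (8.55 ± 1.22, adjusted p = 5.97e-06). Neither gene had overlapping groups. The number of GDSL genes lower was 21 without nectary 1 and 19 without nectary 2, and that higher was 3 without nectary 1, nectary 2, control 1 or control 2. Lipid transfer proteins had 10 of 59 lower (16.9%, all genes 4.74%) and 2 higher (3.39%, all genes 4.03%), with a median of -0.41. LOC107928594 was at 2588 and 1637 against 34548, 52927 and 13202, whereas LOC107928451 was at 11195 and 8830.2 against 858, 755 and 57.2. Both calls were lost with only the 5 samples in the fit (adjusted p = 0.126 and 0.128). Without nectary 1 the number lower was 5, and the number higher was 1 whichever library was left out.

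Regulators of the epidermis changed less uniformly. ODORANT1-like LOC107949180, a MYB gene with best match MYB16, a cuticle and cell shape factor of Arabidopsis, fell by 3.24 on the log2 scale (15.1 and 13.4 against 172, 212 and 79.7, SE 0.71, adjusted p = 0.00199). Of 34 epidermal fate genes 3 rose (8.82%, all genes 4.03%) and 4 fell (11.8%, all genes 4.74%), with a median of -0.53. Those higher were 0 without nectary 1 and 1 without nectary 2 or control 2, and those lower 2 without nectary 1 or nectary 2. The TTG1 gene XP_016726632.1, a trichome regulator, rose by 1.36 ± 0.34 (396 and 293 against 124, 146 and 128, adjusted p = 0.0066), a call lost without nectary 1 (1.14, adjusted p = 0.169).

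**Figure D4:**
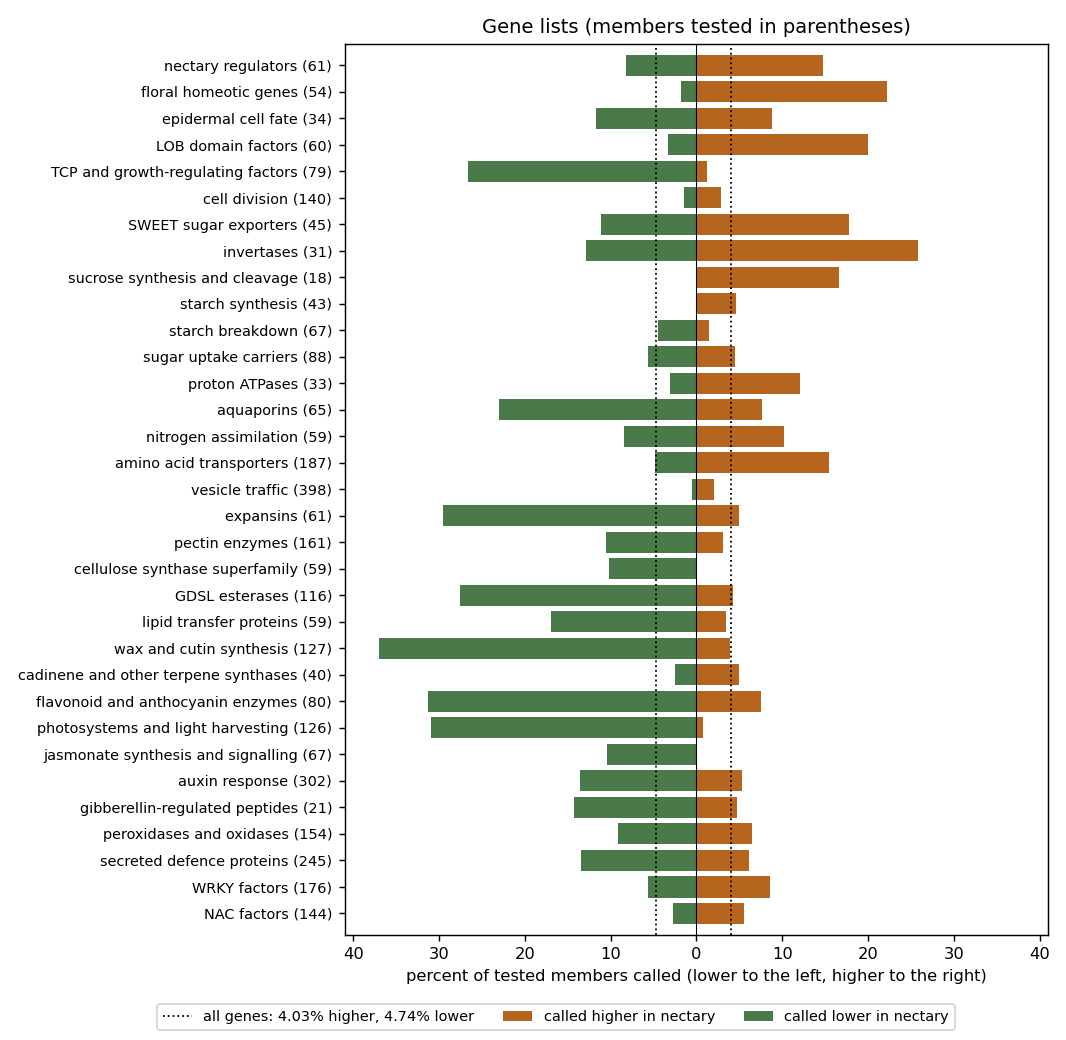
Percent of the tested members of each gene list called higher (right) or lower (left) in the nectary, with the number tested in parentheses and the shares over all genes, 4.03% and 4.74%, as dotted lines. Wax and cutin, flavonoid, photosystem, expansin, GDSL, TCP and aquaporin lists extend well past the left line, and invertase, floral homeotic, LOB and SWEET lists past the right one.

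Of 61 expansins, which loosen walls during growth, 18 fell (29.5%, all genes 4.74%) and 3 rose (4.92%, all genes 4.03%), with a median of -1.15. EXPA8-like LOC107957679 was at 1.01 and 0 in the nectary against 333, 359 and 73.7 (-7.20 ± 0.95, adjusted p = 1.56e-06), while expansin-like A2 LOC107921049 was at 513 and 286 against 36.2, 31.6 and 16.5 (3.79 ± 0.77, adjusted p = 0.000886). Without nectary 1 the counts were 5 lower and 1 higher, and without nectary 2 those lower were 10. Of 161 pectin enzymes, 17 fell (10.6%) and 5 rose (3.11%), with a median of -0.36. Without nectary 1 or nectary 2 those higher were 1 and those lower 5 or 10. Pectinesterase 29 LOC107942915 was at 219 and 63.9 against 0.905, 0 and 0 (6.59 ± 0.55, adjusted p = 1.05e-10). The polygalacturonase inhibitor gene XP_016669453.1 fell by 3.09 on the log2 scale (173 and 144 against 1001, 1616 and 1509, adjusted p = 0.000229). In the cellulose synthase superfamily 6 of 59 fell (10.2%, median -0.70) and limma called 0 higher, with 2 higher at an unadjusted p under 0.05. The catalytic subunit LOC107914099 was at 103 and 90.7 against 640.4, 405 and 569.5 (-2.44 ± 0.48, adjusted p = 0.00061). Those lower were 1 without nectary 1 and 3 without control 1.

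Among the largest decreases were genes for cell wall and seed protein-like products. A putative cell wall protein, XP_016732715.1, was at 90.9 and 5.73 in the nectary and at 146095, 95919 and 15819.6 in the control (-11.25 ± 1.83, adjusted p = 4.56e-05). Its relative LOC107947568 was at 49.5 and 16.2 against 63665, 48081 and 6486 (-9.84 ± 1.18, adjusted p = 2.51e-07). Control 3 was the lowest control sample in both, yet far above the nectary. The 21 kDa seed protein-like genes, named for a cocoa protein of the Kunitz inhibitor family, moved in parallel. XP_016726763.1 and LOC107938188 were listed at 0 in both nectary samples and at 1924, 2539 and 902 and at 1624, 1069.5 and 229.7 in the control. LOC107938175 was at 6.06 and 0 against 2698, 1359 and 2815 (-9.68 ± 1.11, adjusted p = 1.16e-07). Endochitinase 2-like LOC107921281 and a gene annotated as a U1 small nuclear ribonucleoprotein (LOC107920865) were also listed at 0 in the nectary. They reached 417, 511 and 205 and 355, 1272 and 365 in the control.

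Flavonoid enzymes make pigments and condensed tannins. Of 80 flavonoid genes 25 fell, 6 rose and 49 were not called, with a median of -1.21 (15 lower without nectary 1, 3 higher without nectary 2). As shares of the flavonoid list, 31.25% were lower (all genes 4.74%) and 7.5% higher (all genes 4.03%). Chalcone synthase 1-like XP_016699432.1, the entry enzyme, was at 43.4 and 41 against 1649.8, 1114 and 1028 (-4.84 ± 0.94, adjusted p = 0.000502). Leucoanthocyanidin reductase-like LOC107934794, a tannin enzyme, was at 21.2 and 17.2 against 591, 815 and 436 (-4.89 ± 0.45, adjusted p = 1.19e-09). The flavonol synthase-type gene LOC107940452 was at 227 and 344 against 7.24, 13 and 4.33 (5.04, adjusted p = 0.00196). Of 126 photosystem and light-harvesting genes 39 fell (31.0%, all genes 4.74%) and 1 rose (0.794%, all genes 4.03%). The list median was -1.70, and 86 were not called. The chlorophyll-binding protein gene LOC107931745 was at 11.1 and 6.68 against 317, 585 and 179 (-5.06 ± 0.80, adjusted p = 3.17e-05). The photosystem II subunit W gene LOC107955464 was at 23.2 and 82.1 against 591, 1047 and 1177 (-4.33 ± 0.60, adjusted p = 3.63e-06). The number of photosystem genes lower was 14 without nectary 1 and 22 without control 2, and ranged up to 53, and the 1 higher gene was lost without nectary 1. The green mesophyll sum given above was likewise high in control 1 and control 2 and not in control 3, and its part here was not tested.

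Secreted defence proteins are common in nectars. Of 245 such genes 15 rose (6.12%, all genes 4.03%) and 33 fell (13.5%, all genes 4.74%), with a median of -0.60. The STH-2-like gene LOC107916198 was listed at 0 in all control samples and at 424 and 160.3 in the nectary, and LOC107916199, of the same annotation, was at 1214 and 414 against 7.24, 1.86 and 1.73 (7.47 ± 1.31, adjusted p = 0.000139). The thaumatin-like gene XP_016718126.1, of an antifungal family, was at 4972 and 1371 against 38.9, 41.9 and 13 (6.50 ± 0.96, adjusted p = 1.16e-05). Without nectary 1 the counts were 7 higher and 14 lower, and without nectary 2 those lower were 16. Of 154 peroxidases and oxidases, 10 rose (6.49%, all genes 4.03%) and 14 fell (9.09%, all genes 4.74%), with a median of -0.09. Peroxidase 42-like XP_016688219.1 was at 174 and 169 against 4849, 2659 and 2007 (-4.10 ± 0.77, adjusted p = 0.000325), opposite to peroxidase 16-like LOC107912929 above. Without nectary 1 they were 5 higher and 7 lower, without nectary 2 and control 1 those lower were 7 and 9. Of 40 terpene synthases 2 rose (5%, all genes 4.03%) and 1 fell (2.5%, all genes 4.74%), with a median of 0.00 (-0.21 with totals). Terpene synthase 9 XP_016755460.1 was listed at 0 in all control samples and at 372 and 285 in the nectary. The delta-cadinene synthase gene LOC107948215, of the route to gossypol, was at 464 and 552 against 829, 957 and 412 (adjusted p = 0.92).

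Of 176 WRKY factors, many of which act in stress and defence, 15 rose (8.52%, all genes 4.03%) and 10 fell (5.68%, all genes 4.74%), with a median of -0.24. WRKY75-type LOC107922449 was at 2296 and 847 against 5.43, 10.2 and 13 (7.12 ± 0.81, adjusted p = 9.74e-08). The number higher was 7 without nectary 2, and those lower were 4, 3 and 6 without nectary 1, nectary 2 and control 1. Of 144 NAC factors 8 rose (5.56%) and 4 fell (2.78%), shares near those of all genes, with a median of -0.27. NAC72-like XP_016701309.1, a stress factor, was at 854 and 661 against 80.5, 106 and 115 (2.90 ± 0.44, adjusted p = 1.56e-05), and NAC86-like LOC107918504 at 467 and 556 against 21.7, 42.8 and 58.1 (3.71 ± 0.52, adjusted p = 4.16e-06). Those higher were 5 without nectary 1, nectary 2 or control 1, and those lower 1 without nectary 1.

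Auxin response genes, 302 in number, had 16 higher and 41 lower with a median of -0.58 (6 and 23 without nectary 1, 10 higher without nectary 2). As shares of the auxin list, 5.3% were higher (all genes 4.03%) and 13.6% lower (all genes 4.74%). The GH3-type amido synthetase gene LOC107951777, which conjugates auxin, was at 424 and 328 against 16.3, 9.31 and 16.5 (4.68 ± 0.52, adjusted p = 5.19e-08). The YUCCA-type indole-3-pyruvate monooxygenase gene LOC107947905, for auxin synthesis, was at 775 and 765 against 43.4, 14.9 and 13 (5.17 ± 1.11, adjusted p = 0.00163). The small auxin-up gene LOC107921205 was at 169 and 124 against 9606, 6979 and 1978 (-5.13 ± 1.02, adjusted p = 0.000714). Of 67 jasmonate genes 7 fell (10.4%, all genes 4.74%, median -0.37) and limma called 0 higher, with 6 higher at an unadjusted p under 0.05. Among the 7 were the allene oxide cyclase genes XP_016701644.1 and LOC107916790, which make a jasmonate precursor, and the number was 0 without nectary 1. Of 21 gibberellin-regulated peptides 3 fell (14.3%, all genes 4.74%) and 1 rose (4.76%, all genes 4.03%), with a median of -1.03. The 1 higher call was lost whichever library was left out, and those lower were 0 without nectary 1 and 1 without nectary 2.

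The difference at this stage was set beside that of the secretory floral nectary, which has its own nectary and control samples. Genes called higher here had a median log2 difference of 1.18 there, and 74.2% of them were at least 1.5-fold higher there, as were 18.2% of all genes. For genes called lower the median was -2.06 and the share lower 86.6%, against 30.9% of all genes. The nectary difference itself differed between the stages for 75 genes (0.165%) by limma, larger before secretion for 40 (0.0882%) and smaller for 35 (0.0772%), and for 2513 at an unadjusted p under 0.05. The 75 became 19 without nectary 1, 28 without nectary 2 and 45 without control 2. Leaving out secretory libraries gave 37, 126 and 116 without nectary 1, 2 and 3, and 33 and 45 without control 1 and 3. SWEET10-like LOC107949600 was at 28.9, 136 and 10.2 in the secretory nectary against 3.23, 14.9 and 26 beside it, where the pre-secretory values were 1504 and 427. Its nectary difference was larger before secretion by 7.04 (adjusted p = 0.035). This call was lost without nectary 1 (6.13, adjusted p = 0.36), nectary 2 (7.95, 0.068), control 2 (6.99, 0.0831) or control 3 (6.51, 0.0764), and without secretory nectary 1 or 3 or secretory control 2 or 3 (6.20 to 6.91, adjusted p = 0.0769 to 0.0959). It was also lost with only the compared samples (adjusted p = 0.154) or the 17 floral samples (0.0841) in the fit. The second SWEET10-like gene, LOC107946596, did not fall in the nectary. Its mean was 2272 before secretion and 4331 during it, with 8.24 and 480 beside it. Its nectary difference was larger before secretion by 4.68 but was not called (adjusted p = 0.846). Peroxidase 16-like LOC107912929 was at 1414, 3993 and 596 in the secretory nectary, while its adjacent tissue rose to 68.5, 158 and 158 (difference 6.09, adjusted p = 0.0131). That call was lost without nectary 1 (5.72, adjusted p = 0.172) or nectary 2 (6.47, adjusted p = 0.0582), with the 17 floral samples alone (adjusted p = 0.0659) and with a replicate block (adjusted p = 0.0557).

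A few genes lower in the pre-secretory nectary were higher in the secretory one. Expansin-A15 LOC107920574 was at 94.9 and 128 against 975, 1575 and 2928 before secretion and at 535, 364 and 895 against 128, 344 and 213 during it. The nectary difference was -3.89 and then 1.40, and the 2 differed by -5.29 (adjusted p = 2.69e-05), a call that no alternative tried removed. Sulfate transporter 3.1-like LOC107923651 went from 7.07 and 3.82 to 1119, 2727 and 741 in the nectary, and from 59.7, 55.8 and 52 to 52.4, 211 and 306 beside it (-6.30, adjusted p = 0.0147). It was lost without nectary 1 (-6.68, adjusted p = 0.0736), nectary 2 (-5.93, 0.115) or the first secretory control (-5.55, 0.0826).

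Nectary type and bud stage cannot be told apart in what follows. The pre-secretory circumbracteal nectary lies outside the flower and was taken at the match-head square stage. The SD between its replicates was 1.59 times the pooled one, and in its adjacent tissue 1.19 times. The tests use the pooled spread, so p-values of this comparison may be too small. Circumbracteal nectary 3 had values above 0 in 62.4% of entries, against 88.6% to 94.3% in the 5 floral samples. Circumbracteal values of 0 are to be read with that limit. Of the genes called higher in the floral nectary 30.3% were at least 1.5-fold higher there (all genes 16.8%), with a median of 0.23, and of those called lower 50.5% were lower (all genes 37.9%), with a median of -0.60. The difference itself passed the test for 1747 genes (3.85%), with the floral difference larger in 1090 (2.4%) and smaller in 657 (1.45%). It did so for 787 without nectary 1, 1053 without nectary 2, and 2822 and 2842 without circumbracteal nectary 1 and 2. Pru ar 1-like LOC107895971 was at 0, 2.67 and 0 in the circumbracteal nectary and at 1.96, 0 and 9.34 beside it, and the floral excess was larger by 12.08 (adjusted p = 8.77e-06). LBD25-like LOC107923687 was at 31.8, 0 and 0 against 9.81, 100 and 18.7 (10.47, adjusted p = 2.68e-05). The bZIP 53-like gene LOC107889957, of a class of dimerising stress and seed factors, was at 5074 and 2344 against 6.33, 9.31 and 8.67 in the floral nectary and at 0, 32 and 0 against 19.6, 2.92 and 13.3 in the circumbracteal one (10.29, adjusted p = 0.00199). GDSL At5g18430-like LOC107961918 was listed at 0 in both floral nectary samples, with 206, 84.7 and 8.67 beside it, and at 780, 169 and 418 against 66.7, 0.975 and 40 in the circumbracteal pair. The LBD25-like and GDSL calls were lost with only the compared samples in the fit (adjusted p = 0.0535 and 0.0622). Cell wall invertase LOC107948309, SWEET10-like LOC107949600 and sucrose synthase XP_016673840.1 had circumbracteal differences of 2.46, 0.97 and 1.09, smaller than the floral ones by 6.62, 7.63 and 5.71 (adjusted p = 0.0185, 0.00175 and 3.35e-06).

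**Figure D5:**
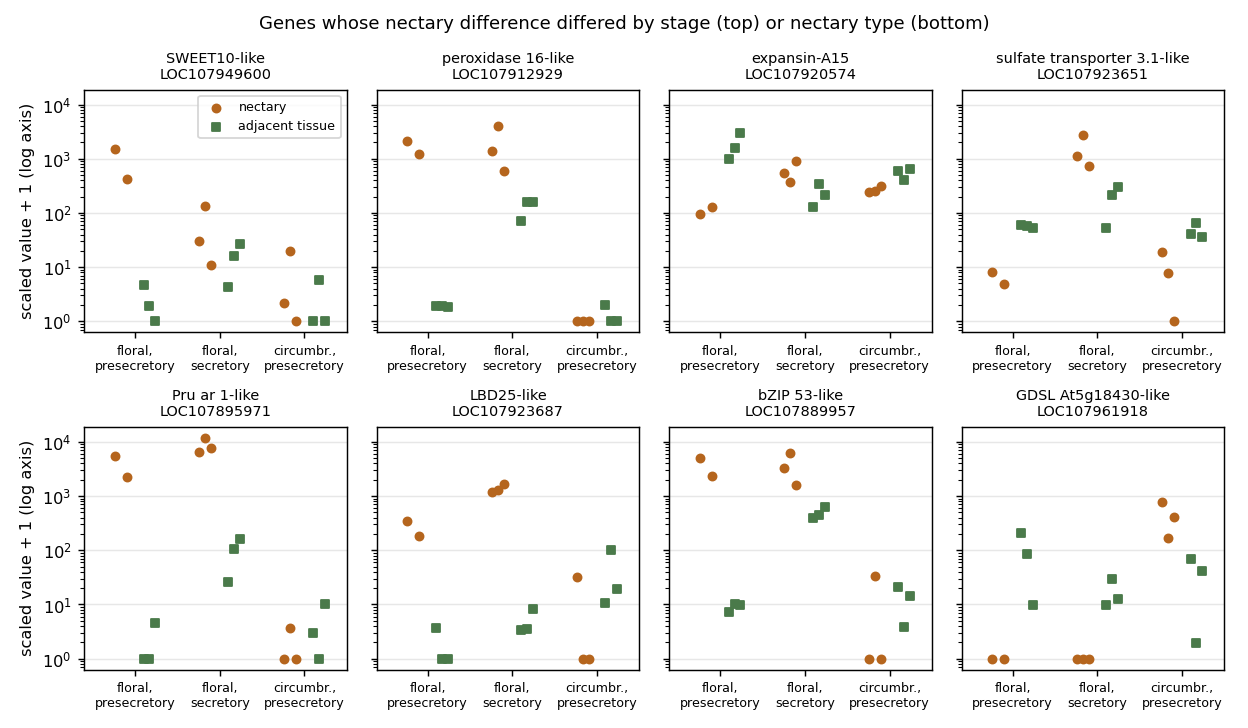
Scaled value + 1 (log axis) by RNA sample of 4 genes whose nectary difference changed with floral stage (top) and 4 in which it differed between the pre-secretory floral and circumbracteal nectaries (bottom). Shown are nectary (circles) and adjacent tissue (squares) of the pre-secretory floral, secretory floral and pre-secretory circumbracteal nectary. Expansin-A15 changes direction between the floral stages, and the Pru ar 1-like gene is at or below 9.34 in every circumbracteal sample.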

How the data were processed

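The members and the gene lists were chosen with earlier results of these data known. Libraries (TruSeq RNA v2, which does not mark strand, Illumina HiSeq) were aligned by the authors with BLASTN and scaled to the upper quartile, per their methods, which describe a different annotation from the table's. The deposited values were whole numbers per RefSeq protein entry, treated as signal, not raw counts: in 6642 of 41605 entries with enough low values these lay on rounded multiples of a step above 1 (median 1.74), as values scaled per entry would. The aligner and build behind the table are not given in the sources used here, so coordinates and sequences were left out. Of 49663 entries 48158 carried a best Arabidopsis match, and 41566 were paired by accession or description with a RefSeq gene name (Gossypium_hirsutum_v2.1), giving 45810 genes. Genes without a paired name keep the entry's identifier, so isoforms of 1 gene may be counted as separate genes there.

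The 2 runs of each RNA sample were summed (r = 0.966 to 0.969 between runs in these 5), entries were summed per gene, and samples were scaled to a common upper quartile. Genes with a summed deposited value, before scaling, of at least 10 in at least 2 of the 51 samples were tested. The test used log2(scaled value + 1) with limma 3.58.1 (R 4.3.3), with 1 coefficient for each of 20 conditions, a trended prior and Benjamini-Hochberg adjustment over all genes. Tables and plots used Python 3.11.15, numpy 2.4.6, pandas 2.3.3 and matplotlib 3.10.9. The model was tested on simulated data. Genes named came from a rule: the 12 largest rises and 12 largest falls among called genes with annotated function, groups apart and a higher-group mean of 100 or more; up to 3 called members per list and direction; the copy of highest mean for genes fixed by their role; and the 4 largest differences per contrast and direction. Which of them are printed, and the further copies of SHI/STY, SWEET, invertase and PISTILLATA genes, was decided after their values were seen. Only 2 same-numbered nectary and control samples exist, so the numbers were not used as pairs. Alternatives were other scalings, pseudocount 10, no filter, fewer samples, each run alone, entries as deposited, a replicate block and leaving out each library. The paper gives a minimum number of reads that every sample reached. Beyond that, the depth of each library is known here only through the sum of its deposited values.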

Additional observations from a re-analysis of the deposited data

Results flagged for a closer look

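For 16 named genes the nectary differences (log2, nectary minus adjacent tissue) differed by a limma test of the difference itself. These genes did so between floral stages, or between the pre-secretory floral and circumbracteal nectaries, where type and bud stage cannot be told apart. They are the 4 largest differences per contrast and direction, and further named genes passed that test. Between stages pectinesterase 29 LOC107942915 did (3.952, adjusted p = 0.00898). Against the circumbracteal nectary peroxidase 16-like LOC107912929 did (10.058, adjusted p = 8.75e-07). The wider spread of the circumbracteal samples, given above, applies here too. All 16 were chosen for passing that test, so their sizes are descriptions. Where a group is listed at 0 the fitted value depends on the pseudocount.

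Between the pre-secretory and the secretory floral nectary, the difference was larger before secretion for peroxidase 16-like LOC107912929 (by 6.093, adjusted p = 0.0131) and SWEET10-like LOC107949600 (by 7.042, adjusted p = 0.035). So it was for a xyloglucan endotransglucosylase gene, LOC107927050, for a wall-remodelling enzyme (103 and 193 with all 3 controls at 0, 6.514, adjusted p = 0.0116). The RADIALIS-like 3 gene LOC107949395, a small MYB-type factor (178 and 95.4 with all 3 controls at 0), differed by 6.494 (adjusted p = 0.0225). Without nectary 1 or nectary 2 these last calls were lost as well, with adjusted p = 0.0581 and 0.107 for LOC107927050 and 0.26 and 0.0761 for LOC107949395. The first was also lost with only the compared samples (adjusted p = 0.17) or the 17 floral samples (0.0568) and without the first secretory nectary (0.0615) or secretory control (0.0517). The second was lost with the 17 floral samples (0.0568) and without control 2 (0.0555), secretory nectary 3 (0.051) or secretory control 1 (0.085). The difference was smaller before secretion for the early nodulin-93-like gene LOC107907449, listed at 0 in both pre-secretory nectary samples and at 203, 1310 and 791 in the secretory ones (-9.85, adjusted p = 0.0086). Its call was lost without nectary 1 (adjusted p = 0.0648) or nectary 2 (adjusted p = 0.0582). Sulfate transporter 3.1-like LOC107923651 (-6.304, adjusted p = 0.0147), expansin-A15 LOC107920574 (-5.294, adjusted p = 2.69e-05) and a cytokinin-activating phosphoribohydrolase gene, LOC107963892 (-4.387, adjusted p = 0.0396), shared this direction. The call of LOC107963892 was lost without nectary 1 (-5.24, adjusted p = 0.0571) or nectary 2 (-3.54, adjusted p = 0.316), and without control 1 (adjusted p = 0.0819) or control 2 (0.125). It was lost too with totals (0.0788), with only the compared samples (0.0744) and without secretory nectary 1 (0.141) or any of the 3 secretory controls (0.0556 to 0.123).

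Between the pre-secretory floral and circumbracteal nectaries, the floral difference was larger for the cytochrome P450 gene LOC107892021 (358 and 241 with the 3 floral controls at 0, and 0 in all circumbracteal nectary samples). The 2 differences were 12.368 apart (adjusted p = 7.62e-09). The same held for Pru ar 1-like LOC107895971 (12.077), LBD25-like LOC107923687 (10.466) and bZIP 53-like LOC107889957 (10.292). It was smaller for the U1 ribonucleoprotein-annotated gene LOC107920865 (0 and 0 in the floral nectary, 23545, 19218 and 6707 in the circumbracteal one, -11.348, adjusted p = 0.000247). The 21 kDa seed protein-like gene XP_016726763.1 (-10.68, adjusted p = 2.17e-07) was at 0 in all circumbracteal samples of both tissues, so that its difference comes from the floral side alone. The remaining genes were the cell wall protein gene XP_016732715.1 (-10.487, adjusted p = 0.0085; -8.60, adjusted p = 0.0981, without nectary 2) and GDSL At5g18430-like LOC107961918 (-10.234, adjusted p = 4.29e-06).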

How the results depend on the processing

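Of the 3972 genes called in the pre-secretory floral nectary, leaving out 1 library gave 1479 to 3486 calls, and fitting only the 5 samples gave 1848. The 75 genes whose difference changed with stage became 333 with a pseudocount of 10, 123 with run 1 alone and 19 to 126 without 1 library. The 1747 that differed from the circumbracteal nectary became 545 with only the compared samples and 787 to 2842 without 1 library. Same-numbered nectary and control samples, of which there were 2 pairs, share only a number: their deviations correlated with r = 0.2225. With a replicate block the counts were 5575, 335 and 3185. The other alternatives kept these counts within 1.5 times: 3901 with entries as deposited, 3961 without a filter, 4908 with a pseudocount of 10 and 5304 with the 17 floral samples. A like count can hold other genes. For the change with stage, only the compared samples gave 72 calls, of which 18 were among the 75. The 17 floral samples gave 79, of which 23 were among the 75. Among named genes 2350 alternative values kept the call and 270 lost it, with 0 reversed, and among the named differences 270 kept it and 44 lost it. The causes were not tested. With 2 nectary samples, differences of weakly expressed genes, near the filter value of 10, may not be detectable at this depth.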
